A study of Homo sapiens and Mus musculus with 33 samples.

Results

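In mouse colon epithelium, 2161 of the 30338 peaks of H3K18cr (histone H3 crotonylated at lysine 18) lay away from the listed gene starts and carried H3K4me3 (histone H3 trimethylated at lysine 4) as well. They were chosen as H3K18cr peaks narrower than 5 kb, at least 5 kb from every gene start of the RNA-seq table of the same tissue, that overlapped an H3K4me3 peak by at least 1 bp. A gene start is the outer 5' end of the gene in that table, and there is 1 per gene. Of 16776 distal H3K18cr peaks narrower than 5 kb, the 2161 double-marked peaks were 12.9%, and the remaining 14615 overlapped no H3K4me3 peak. Also used for comparison were 9093 H3K18cr peaks within 1 kb of a listed gene start that overlapped an H3K4me3 peak, called promoter peaks here. These too were narrower than 5 kb, so wider promoter peaks were left out. From the other side, 2336 of 11297 distal H3K4me3 peaks narrower than 5 kb (20.7%) overlapped an H3K18cr peak.

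The tissue was the colon epithelial fraction of C57BL/6 mice, with no treatment or mutation given in the labels. H3K18cr was measured in 2 ChIP-seq libraries with 2 input libraries, H3K4me3 in 3 ChIP-seq libraries with 1 input library, and RNA in 3 RNA-seq libraries. The study calls the H3K4me3 replicates biological and speaks of cells from 2 mice for H3K18cr. Its methods state that 3 colons were combined for the H3K18cr ChIP, and also describe pooling of colons for ChIP. Where replicates were technical, the p-values measure only the spread between these libraries. Each mark has 1 list of peaks for all its libraries, and the values are reads multiplied by 1 factor per library. The 2161 peaks held 166832 and 265454 reads in the H3K18cr ChIP libraries and 103382 and 86169 in the inputs. The RNA-seq libraries held 8166406 to 10707901 counts. The 20 epithelial marker genes summed to 26370 to 29734 CPM (counts scaled to the same total in each library), against 129 to 192 CPM for 26 immune genes and 90.1 to 118 CPM for 20 stromal and endothelial genes, of which 1 gene was at 0. Epcam, an epithelial adhesion molecule, was at 1769 to 2038 CPM, and Ptprc, the pan-leukocyte phosphatase, at 13.8 to 22.3 CPM. In bulk samples, fewer cells of a type and less RNA or less of a mark per cell cannot be told apart.

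Crotonylation is an acyl mark related to acetylation. It is written by acetyltransferases such as p300, removed by class I histone deacetylases, and found with H3K4me3 at active gene starts. H3K4me3 is laid down by SET1 and MLL complexes, mostly at promoters and over CpG islands. Many genes have several promoters, which a list with 1 start per gene does not hold.

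Sequences of 3 double-marked peaks are shown because they bear some of the strongest marks of the set. They are the stretches at the centre of the overlap of both marks at Jmjd1c and Tcf20, among the 5 highest for H3K4me3, and at Bicral, among the 5 highest for H3K18cr. Each is written on the plus strand of GRCm38, 5' to 3', with annotated untranslated bases left out, which shortens that at Tcf20. Capitals mark the GGGCGG box bound by SP and KLF factors, on either strand; of the 11 motifs searched it was the only one found in these stretches. Auts2, which ranked second for H3K4me3, is not shown because its window lies in an annotated untranslated exon.
Jmjd1c, chr10:67127026-67127325: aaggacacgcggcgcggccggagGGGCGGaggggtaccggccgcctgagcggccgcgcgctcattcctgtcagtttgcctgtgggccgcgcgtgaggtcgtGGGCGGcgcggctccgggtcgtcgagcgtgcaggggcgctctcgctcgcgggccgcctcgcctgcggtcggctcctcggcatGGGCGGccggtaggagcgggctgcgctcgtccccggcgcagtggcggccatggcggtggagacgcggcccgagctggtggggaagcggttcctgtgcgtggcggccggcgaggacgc
Tcf20, chr15:82899376-82899501: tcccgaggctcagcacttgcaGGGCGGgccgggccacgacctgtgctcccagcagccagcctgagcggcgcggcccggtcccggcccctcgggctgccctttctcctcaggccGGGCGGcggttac
Bicral, chr17:46857376-46857675: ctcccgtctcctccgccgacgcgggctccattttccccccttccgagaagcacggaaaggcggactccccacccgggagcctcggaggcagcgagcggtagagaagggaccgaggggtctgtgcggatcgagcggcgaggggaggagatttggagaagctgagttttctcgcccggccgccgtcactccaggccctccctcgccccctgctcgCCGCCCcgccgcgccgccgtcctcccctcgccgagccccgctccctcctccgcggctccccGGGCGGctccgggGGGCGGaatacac
The box occurred 3 times at Jmjd1c, 2 times at Tcf20 and 3 times at Bicral. The CpG observed to expected ratio, which is 1 when CpG occurs as often as its C and G content gives, was 1.14 at Jmjd1c, 0.716 at Tcf20 and 0.955 at Bicral.

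Annotated transcript starts were far more common at distal peaks with both marks than at those without H3K4me3. In the GENCODE M21 annotation of GRCm38, which lists several transcripts per gene, 1024 of the 2161 peaks (47.4%, Wilson 95% interval 45.3 to 49.5) were within 1 kb of a transcript start, against 1458 of the 14615 distal peaks without H3K4me3 (9.98%, 9.50 to 10.5). The intervals cover counting error only and do not overlap. Of the 1024, 734 (34.0% of all double-marked peaks) were at starts of coding genes that the RNA-seq table lists with a start elsewhere. A further 63 were at coding genes absent from the table by name, 146 at long noncoding RNAs, 36 at pseudogenes, 28 at small RNAs and 17 at unclassified transcripts. A peak near several starts was given to 1 class, coding genes first, and any transcript of a coding gene counted. Starts of protein-coding transcripts were within 1 kb of 665 double-marked peaks (30.8%). Outside annotated starts, 492 (22.8%) had their centre in an intron, 97 (4.49%) in an exon and 548 (25.4%) between genes. Distal peaks without H3K4me3 were more often in introns (48.4%) and between genes (39.1%). As many as 858 double-marked peaks (39.7%) were at least 5 kb from any annotated transcript start, against 73.2% of the distal peaks without H3K4me3.

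**Figure D1:**
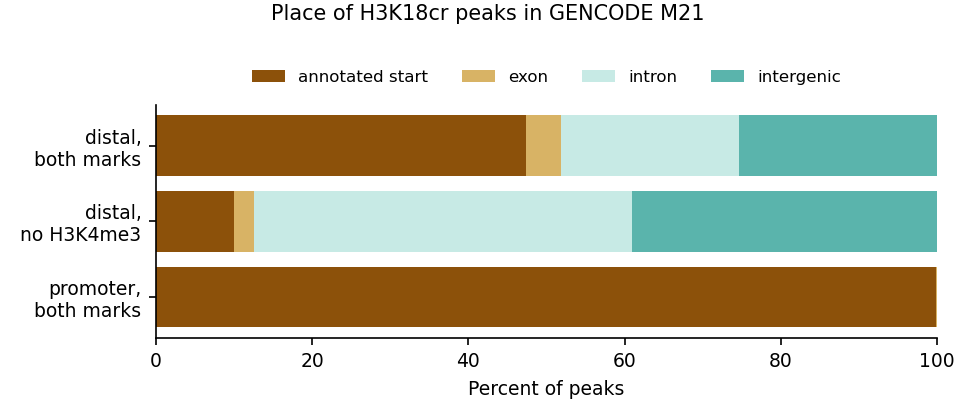
Place of H3K18cr peaks in GENCODE M21, as the percent of peaks of each set (horizontal axis) at an annotated transcript start (within 1 kb), or with their centre in an exon, an intron or between genes. Annotated starts took 47.4% of distal peaks with both marks, 9.98% of those without H3K4me3 and 99.9% of promoter peaks.

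The double-marked peaks were median 1650 bp wide, as were promoter peaks, against 1350 bp for distal peaks without H3K4me3. Their median distance to a listed gene start was 21796 bp, against 29791 bp. The rule asked for an overlap of at least 1 bp, and the median overlap was 1050 bp, with a median distance of 225 bp between the peak centres. In 1656 of the 2161 peaks (76.6%) the centres were within 500 bp. In 1085 peaks (50.2%) the H3K4me3 peak lay wholly inside the H3K18cr peak, while in 556 (25.7%) it covered less than 50% of it. H3K4me3 peaks at these sites were narrower (median 1200 bp) than at promoter peaks (median 1800 bp). A second double-marked peak was within 5 kb of 362 of the peaks (16.8%), and any other H3K18cr peak was within 5 kb of 986 (45.6%). Adjoining peaks were counted separately.

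H3K18cr over input was somewhat higher at distal peaks with H3K4me3 than at those without it, and a little lower than at promoters. Over the 2161 peaks, the log2 ChIP over input ratio had a median of 1.09 in replicate 1 and 1.75 in replicate 2, computed on scaled reads with 1 added, over the mean of the inputs. At distal peaks without H3K4me3 it was 0.90 and 1.48, and at promoter peaks 1.18 and 1.86. The difference to distal peaks without H3K4me3 was thus 0.19 and 0.27 (mean 0.23 ± 0.05, SD, n = 2), and that to promoter peaks -0.09 and -0.12 (mean -0.10 ± 0.02, SD, n = 2). Both libraries gave the same sign in each comparison, while the replicates themselves lay further apart than the sets did. An exact permutation test of 2 ChIP against 2 input libraries, two-sided, gave p = 0.333 for both differences, the smallest value this design allows. Input medians were 25.9 and 33.4 scaled reads per kb at double-marked peaks, 26.7 and 33.1 at distal peaks without H3K4me3, and 26.7 and 34.5 at promoter peaks.

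H3K4me3 was lower at distal double-marked peaks than at promoters in every library. Of the H3K4me3 peaks that overlap distal sites, 2137 were used, leaving out 2 that also reach a promoter peak. The 5 kb distance was asked of the H3K18cr peak only, so an H3K4me3 peak may reach nearer to a listed start. The median log2 ratio of H3K4me3 to input was 1.25, 1.74 and 2.07 in replicates 1 to 3 for these peaks. For peaks at promoters it was 2.00, 2.76 and 3.16. The difference of -0.75, -1.03 and -1.08 (mean -0.95 ± 0.18, SD, n = 3) had the same sign in 3 of 3 libraries. These ratios share 1 input library, so the SD leaves out the variation of the input. The exact sign-flip permutation test, two-sided, gave p = 0.25, the smallest value for 3 libraries. With H3K4me3 peaks of 1 to 2 kb only, the mean difference was -0.68. In input, peaks of both kinds had a median of 20 scaled reads per kb.

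**Figure D2:**
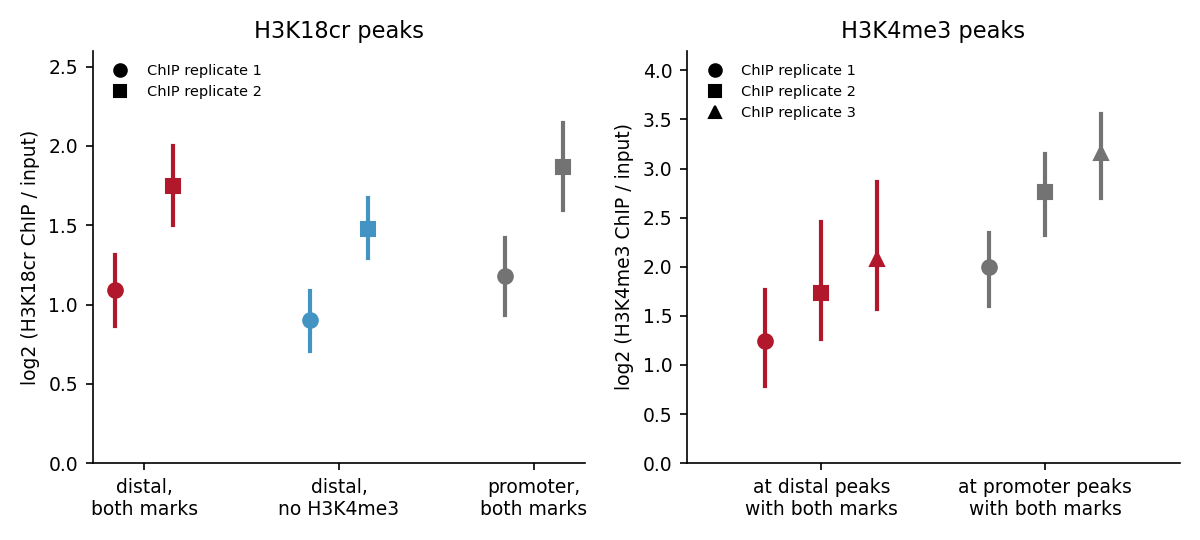
Median log2 ratio of ChIP to input (vertical axes) with bars from the lower to the upper quartile of peaks, for H3K18cr peaks of 3 sets in 2 libraries (left) and for H3K4me3 peaks at distal and promoter peaks with both marks in 3 libraries (right). H3K18cr at distal double-marked peaks (1.09 and 1.75) lay between the other sets, and H3K4me3 there (1.25 to 2.07) lay below that at promoters (2.00 to 3.16).

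Among the double-marked peaks, annotated starts carried more of both marks. The H3K4me3 ratio was 0.59, 0.80 and 0.87 higher on the log2 scale in the 3 libraries at the 977 H3K4me3 peaks with an annotated start than at the 1105 without one, counting for each double-marked peak the H3K4me3 peak with the longest overlap (mean 0.75 ± 0.15, SD, n = 3 with 1 shared input; exact sign-flip p = 0.25, the smallest possible). The H3K18cr ratio was higher by 0.08 and 0.12 (mean 0.10 ± 0.02, SD, n = 2). The exact permutation test on summed scaled reads gave p = 0.333, again the smallest possible. When the peaks were divided into 4 groups of 540 or 541 by their H3K4me3 ratio, the share at an annotated start was 24.4%, 32.2%, 52.6% and 80.4% from the lowest to the highest group. The median H3K18cr ratio was 1.02, 1.02, 1.11 and 1.27 in replicate 1 and 1.66, 1.67, 1.73 and 1.97 in replicate 2 of the same groups. Across the 2161 peaks, Spearman's rho between the ratios of both marks was 0.309, and rho between the H3K18cr libraries, which share their inputs, was 0.661. The marks were counted in separate libraries and over peaks of unequal width, and peaks are not independent replicates.

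**Figure D3:**
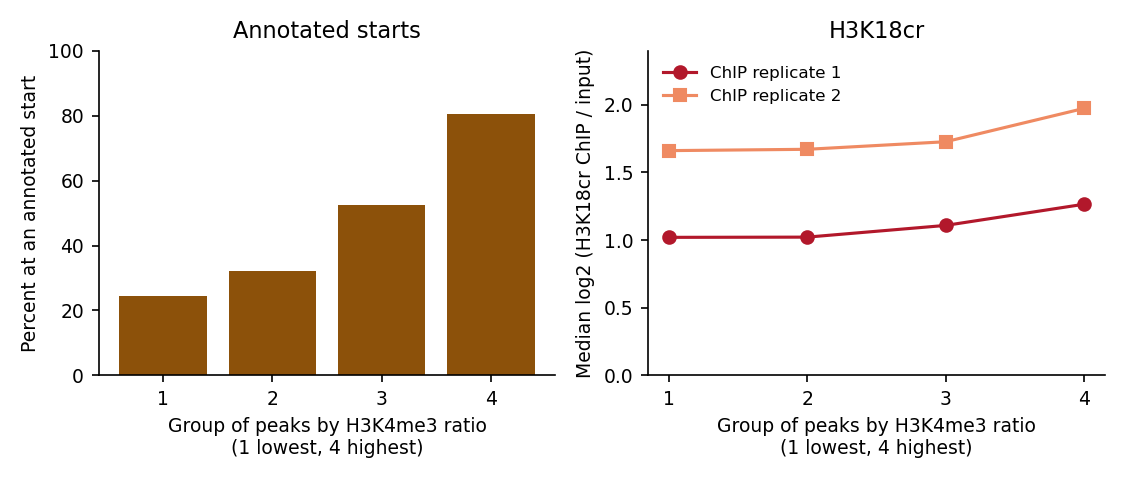
Distal peaks with both marks, in 4 groups of 540 or 541 peaks by their mean H3K4me3 log2 ratio (horizontal axes). The bars (left) give the percent within 1 kb of an annotated transcript start, from 24.4% to 80.4%, and the points (right) the median log2 ratio of H3K18cr to input in each library, highest in group 4.

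Of the 2161 peaks, 2043 (94.5%) were above input for H3K18cr at an adjusted p under 0.05 in limma, against 90.1% of all 30338 peaks. For H3K4me3, 1614 of the 2139 overlapping peaks (75.5%) were above input, against 75.9% of all 27035. Peaks were called against input, so these counts describe the peaks and support nothing. They depend on the scaling. With TMM, which centres the typical peak at no enrichment, 219 (10.1%, against 7.41% of all peaks) were above input for H3K18cr, and for H3K4me3 382 (17.9%, against 22.6%) were above and 103 below. They also rest on single libraries. The median H3K18cr log2 fold change in limma was 1.42 over the 2161 peaks, against 1.31 over all peaks. It was 1.11 against 1.01 without ChIP replicate 2. Without input replicate 1 it was 1.26 against 1.16, and without input replicate 2 it was 1.60 against 1.47. The count of H3K18cr peaks above input fell in each of these fits, which leave 1 library in a group. That of H3K4me3 peaks was 13 (0.608%, against 0.348% of all peaks) without ChIP replicate 2 and 226 (10.6%, against 9.63%) without ChIP replicate 3. As ratios, 1315 peaks (60.9%, against 48.9% of all peaks) were above 2-fold in both H3K18cr libraries, and 1 peak (0.0463%, against 0.0824%) was below input in replicate 1.

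At the 5 peaks with most H3K4me3 per kb, all at annotated starts, the H3K4me3 ratio ran from 2.50 to 4.32 over the libraries. The highest was at Jmjd1c, which encodes a histone demethylase of the JmjC family, at chr10:67126351-67128000, 30.2 kb inside the gene. H3K4me3 there gave 223, 490 and 619 scaled reads against 30.0 in input, the measure it was chosen by. H3K18cr gave 119 and 199 scaled reads against 44.0 and 38.2 in the inputs (limma log2 fold change 1.89 ± 0.49, SE). All ChIP libraries were above all inputs.

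Auts2, a large gene known from neurodevelopment, held the peak that ranked next (chr5:131535601-131539350), 1004 kb from the listed start of the gene. Its H3K4me3 was 444, 666 and 935 scaled reads against 56.0 in input, and its H3K18cr 273 and 567 against 101 and 136. The listed Auts2 start had an H3K4me3 peak within 1 kb and no H3K18cr peak. The remaining 3 were at Tcf20, a transcriptional coregulator (chr15:82898551-82900500, H3K4me3 ratio 2.74, 3.68 and 4.21), at the noncoding gene Gm8066 inside the table's Epo gene (chr5:137509651-137511450, 2.80, 3.81 and 4.25) and at Srpk2, a kinase of splicing factors (chr5:23675251-23676000, 2.50, 3.27 and 4.02). H3K18cr at Srpk2 was the lowest of the 5, with ratios of 0.86 and 1.69.

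Of the 5 peaks with the highest H3K18cr ratio, the 4 described here were at annotated starts. Bicral, a subunit of a SWI/SNF chromatin remodelling complex, is absent from the RNA-seq table by that name. Its peak (chr17:46855801-46859100) had 490 and 815 scaled H3K18cr reads against 70.0 and 122 in the inputs (limma log2 fold change 2.76 ± 0.56, SE), and 375, 645 and 910 scaled H3K4me3 reads against 61.0. ChIP and input did not overlap for either mark. Elf4, an ETS-family transcription factor (chrX:48452701-48454350), had H3K18cr ratios of 2.12 and 3.28 at a start 8.78 kb inside the gene, and both marks were also at its listed start. Pnrc1, a nuclear receptor coactivator (chr4:33246901-33249600), had ratios of 2.03 and 3.00, 40.6 kb from a listed start with neither mark. Zfhx3, a homeobox transcription factor (chr8:108703651-108705300), had ratios of 2.05 and 2.96 and an annotated start 551 bp away. These 4 peaks had H3K4me3 ratios of 1.95 to 4.11, above the median H3K4me3 ratio of the same library at distal sites in each case.

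The 3 peaks with the lowest H3K18cr ratio, among those with at least 50 scaled reads, were away from annotated starts. They were in an exon of Bspry (chr4:62495401-62497950, ratios 0.61 and 0.60), in an intron of Sertad2, a transcriptional coregulator (chr11:20639551-20640750, 0.03 and 1.27), and between genes near Camk2n1, an inhibitor of calmodulin-dependent kinase (chr4:138463051-138464550, 0.29 and 1.08). At Sertad2, replicate 1 gave 52.5 scaled reads against 46.0 and 56.5 in the inputs, so that library overlapped the inputs.

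**Figure D4:**
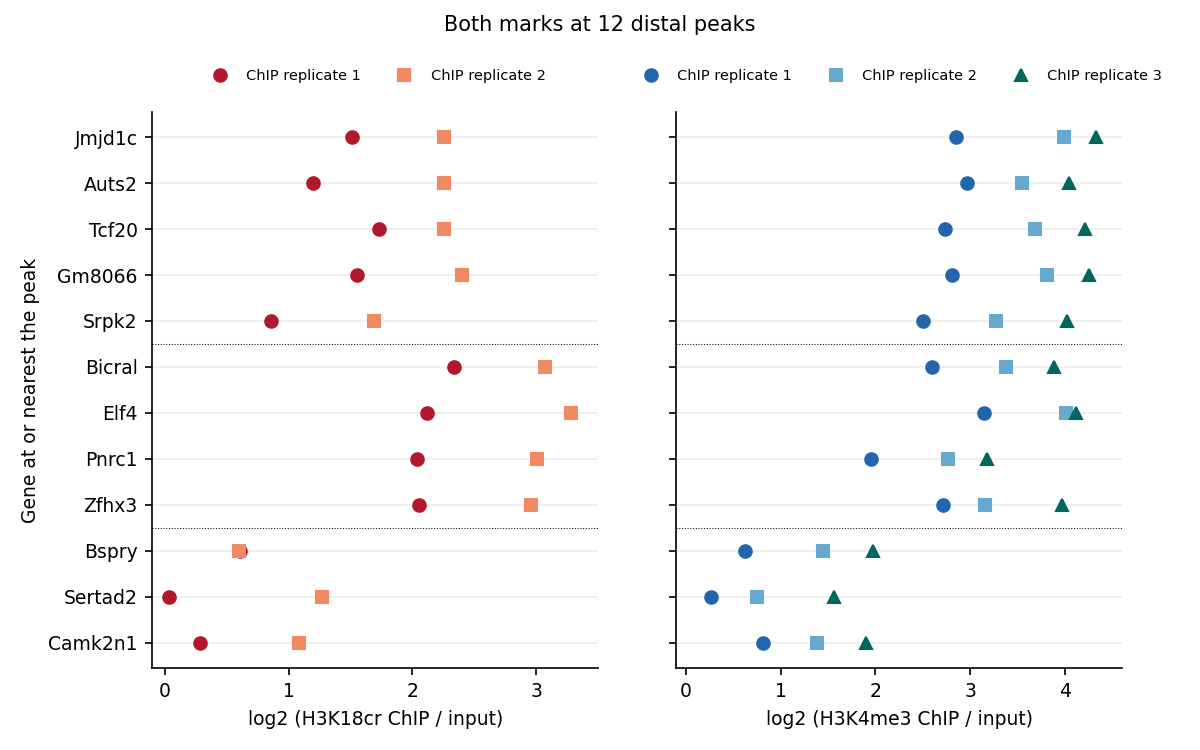
Log2 ratio of ChIP to input for H3K18cr in 2 libraries (left) and H3K4me3 in 3 libraries (right) at 12 distal peaks with both marks, named by the gene at or nearest the peak. From top to bottom the 5 with most H3K4me3 per kb, 4 of the 5 with the highest H3K18cr ratio (2.03 to 3.28) and the 3 with the lowest (0.03 to 1.27), divided by dotted lines.

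Values of peaks just inside and just outside the rule are given as a description. The nearest peak inside the 5 kb distance was 5002 bp from the Pygm start, with H3K18cr ratios of 0.79 and 1.61, and the nearest outside was 4997 bp from Aurkb, with 1.04 and 1.48. Next to these, the peak at 5017 bp from Tnip1 had ratios of 1.14 and 1.82 and that at 4996 bp from Vsig2 had 0.71 and 1.31. For width, 10 peaks were 4950 bp wide, and the 2 taken at 5100 bp, near Ddit4 and Ppara, had ratios of 1.21 and 2.01 and of 1.26 and 2.08. The 2 taken at 4950 bp, nearest to 4933416C03Rik and Ccdc6, had 1.22 and 1.85 and 1.46 and 2.18. Peaks start on a grid, and the smallest overlap was 150 bp, found at 38 peaks. Of these, a peak near Unc5b had ratios of 0.89 and 1.87 and one near Hdac5 had 0.58 and 1.44. As many as 48 distal peaks ended 1 bp from an H3K4me3 peak and were outside, such as another near Unc5b (0.95 and 1.94) and one near Tmpo (0.97 and 1.50).

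Double-marked distal peaks were GC-rich and CpG-rich compared with distal peaks without H3K4me3. Their central 300 bases had a median GC content of 57.3%, against 47.7% and, at promoter peaks, 64.0%. The median CpG observed to expected ratio was 0.449, against 0.188 and 0.767. A window with at least 50% GC and a ratio of at least 0.6, as used to define CpG islands, was found at 704 double-marked peaks (32.6%), at 71 distal peaks without H3K4me3 (0.486%) and at 6251 promoter peaks (68.7%). Soft-masked repeats took a median of 7%, 10.3% and 0% of the windows.

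CpG content differed by place within the double-marked peaks. The island-like share was 46.3% at annotated starts, 41.2% in exons, 26.5% between genes and 9.15% in introns, and the median CpG ratio in introns was 0.258. Of the 704 island-like peaks, 67.3% were at an annotated start, against 37.7% of the other 1457. The H3K18cr ratio was 1.17 and 1.83 in the island-like peaks and 1.05 and 1.71 in the others.

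**Figure D5:**
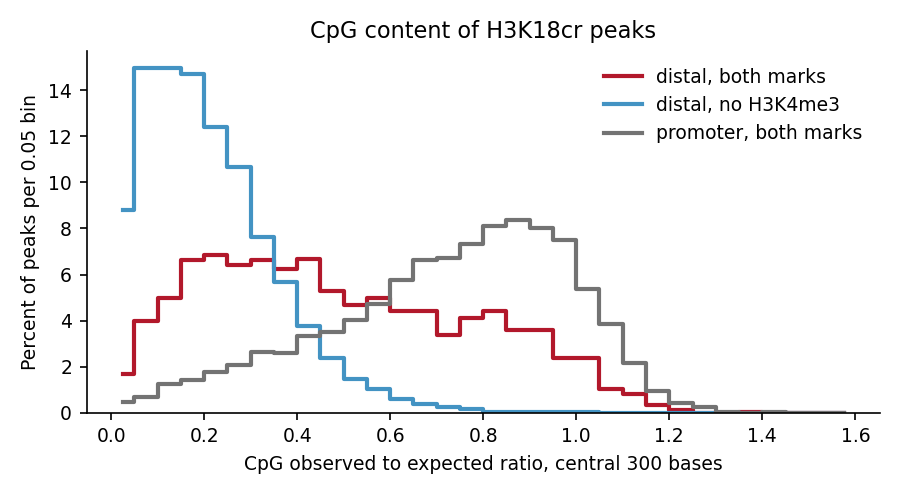
Percent of peaks per bin of the CpG observed to expected ratio in the central 300 bases (horizontal axis), for the 3 sets of H3K18cr peaks. Distal peaks with both marks (median 0.449) spread over the range of both other sets (medians 0.188 and 0.767).

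Short motifs were searched in the same 300 bases on both strands. GC-rich motifs were more frequent at double-marked peaks than at distal peaks without H3K4me3. GGGCGG was in 35.8% of double-marked windows, against 6.06% of distal windows without H3K4me3 and 54.4% of promoter windows. CCGGAAG, an ETS motif, was in 6.15%, 2.13% and 11.9%. CCAGNNGGC, part of the CTCF motif, was in 12.3%, 5.80% and 11.3%. AT-rich motifs went the other way. TTTATNG, bound by CDX factors of the gut, was in 8.05% of double-marked windows, 16.5% of distal windows without H3K4me3 and 4.96% of promoter windows. AGATAA, bound by GATA factors, was in 7.50%, 15.8% and 4.65%, TGANTCA (AP-1) in 7.73%, 12.6% and 4.31%, TGTTTAC (FOX factors) in 3.33%, 5.47% and 1.96%, and TATAAA in 6.66%, 17.4% and 4.87%. The longer GCGCATGCG (NRF1), TGACGTCA (CREB) and CAAAGTCCA (HNF4) were in 0.555%, 1.34% and 0.694% of double-marked windows, against 0.0616%, 0.308% and 1.24% of distal windows without H3K4me3 and 1.30%, 1.62% and 0.407% of promoter windows. A match is a description of the letters and not a bound site, and base composition differs between the sets.

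Genes of the RNA-seq table held 1261 of the double-marked peaks (58.4%, Wilson 95% interval 56.3 to 60.4), against 51.1% (50.3 to 52.0) of distal peaks without H3K4me3. The peaks fell in 1022 genes, of which 841 held 1, 121 held 2 and 60 held 3 or more. Gm20388 held 27, but this model spans 4434882 bp and covers other genes. Bcor, a corepressor that partners BCL6, held 11 within 123616 bp, 3 of them at annotated Bcor starts. Their H3K18cr ratio ranged from 0.99 to 2.19 in replicate 1 and from 1.84 to 3.08 in replicate 2. Gse1, a subunit of corepressor complexes and itself inside the Gm20388 model, held 6, as did Maml3, a coactivator of Notch signalling, and Myo15b, an unconventional myosin. None of the 6 peaks in Maml3 was at an annotated start, and 3 of the 6 in Myo15b were. Median H3K18cr ratios were 1.62 and 2.48 in Bcor, 0.94 and 1.92 in Gse1, 0.97 and 1.47 in Maml3 and 1.16 and 2.08 in Myo15b.

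Whether genes with a double-marked peak were expressed above or below other genes depended on how length and low counts were treated. Per kb of the whole gene, the median over the 986 expressed genes that held one was 0.534, 0.557 and 0.515 CPM per kb in the 3 libraries, against 0.679, 0.692 and 0.664 over all 16691 genes with a count. Per kb of exon, over the 923 and 14961 of these genes with an exon length in GENCODE, the median was 6.04, 6.30 and 5.93 CPM per kb, against 4.09, 4.18 and 4.03. Over the same 923 and 14961 genes, the median per kb of the whole gene was 0.538, 0.561 and 0.535, against 0.702, 0.716 and 0.690. The direction turned between these measures also on the same genes, and these genes were longer, with a median of 59.4 kb against 20.1 kb. It also depended on the lowest counts. As log2 of the median over genes with a double-marked peak to that over all genes, the values were -0.34 per kb of gene and 0.57 per kb of exon, and with genes of at least 10 counts only they were -0.90 and 0.08. Genes holding only distal peaks without H3K4me3 had a similar length (64.5 kb) and 6.02, 6.32 and 6.14 CPM per kb of exon, beside 6.04, 6.30 and 5.93 for those with a double-marked peak. An H3K18cr peak within 1 kb was at 62.4% of the listed starts of genes with a double-marked peak. The share was 78.4% for genes holding only distal peaks without H3K4me3 and 65.6% over all genes with a count. For an H3K4me3 peak the shares were 73.4%, 84.5% and 77.1%.

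Double-marked peaks at alternative starts were examined by gene. An annotated start of 638 genes of the table lay within 1 kb of such a peak. The listed start of 289 of them carried both marks as well, that of 114 carried 1 mark, and that of 235 carried neither within 1 kb. Per kb of exon, the median over the expressed ones among the 235 was 3.86, 4.10 and 4.20 CPM per kb, against 7.65, 7.87 and 7.48 where both starts were marked.

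The 7 most highly expressed of the 235 are described here, chosen after their values were seen. Psma6, a subunit of the 20S proteasome, had 148, 136 and 146 CPM per kb of exon. Its listed start had neither mark, and the double-marked peak 13.8 kb downstream (chr12:55398001-55399800) had 2 of its 4 annotated transcript starts. H3K18cr ratios there were 1.30 and 2.00, and H3K4me3 ratios 2.07, 2.50 and 3.02. Clta, the light chain of clathrin, had 103, 93.9 and 90.8 CPM per kb of exon and 5 of its 6 transcript starts at the peak (chr4:44011951-44013600), with H3K18cr ratios of 1.48 and 2.09 and H3K4me3 ratios of 2.56, 3.48 and 3.78. Hsp90aa1, the inducible HSP90 chaperone, had 5 of 8 starts at its peak (chr12:110695351-110697600), 5.13 kb from the listed start, with H3K18cr ratios of 1.60 and 2.65 and H3K4me3 ratios of 2.31, 2.76 and 3.38.

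In Papss2, which makes the sulfate donor PAPS used for mucin sulfation, the peak (chr19:32595451-32597850) was 22.2 kb upstream of the listed start and at the start of 1 of 3 transcripts. Its H3K18cr ratios were 1.66 and 2.28 and its H3K4me3 ratios 1.94, 2.64 and 3.18, at 79.9, 59.7 and 73.8 CPM per kb of exon. Pde2a, a cyclic nucleotide phosphodiesterase, had 61.4, 80.7 and 85.8 CPM per kb of exon and a weaker H3K18cr ratio of 0.89 and 1.37. Gsn, the actin-severing protein gelsolin, had H3K18cr ratios of 0.78 and 1.88 at 5 of its 7 starts. Dpep1, a membrane dipeptidase, had 79.4, 49.8 and 43.0 CPM per kb of exon, with H3K18cr ratios of 0.95 and 1.65 and H3K4me3 ratios of 0.66, 1.69 and 1.28 (chr8:123192451-123195300). At the peaks of these 7 genes, both marks were above the mean input in every ChIP library.

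Of the 28 double-marked peaks at small RNA starts, 12 were at genes with a microRNA name. Those named here were chosen after their values were seen. Mirlet7i, of the let-7 family, had the highest mean H3K18cr ratio of the 12, at 1.95 and 2.81, with H3K4me3 ratios of 2.36, 2.95 and 3.56 (chr10:122985001-122987100). Mir194-2, of a cluster typical of gut epithelium, had 1.19 and 2.31 for H3K18cr and 1.59, 2.24 and 2.48 for H3K4me3 (chr19:6262201-6266100). Mir203, an epithelial microRNA, had 1.44 and 2.20 for H3K18cr and 1.54, 2.20 and 2.58 for H3K4me3 (chr12:112128001-112131900). Mir148a had 1.34 and 1.90 for H3K18cr and 1.71, 2.81 and 2.97 for H3K4me3 (chr6:51269401-51271800). The lowest of the 12 by the mean H3K18cr ratio was at Mir3105, with 0.72 and 0.94, while in replicate 1 alone Mir6991 (0.37) and Mir193b (0.57) were lower. All of these were above the mean input in each library, and the RNA-seq table was not used to measure microRNAs.

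Lists of genes of the tissue were searched for double-marked peaks inside the gene. One was held by 3.93% of all 25899 gene names in the table and by 7.77% of the 9450 genes of 20 to 200 kb. Among 50 intestinal transcription factors 11 held one (22.0%). Of 39 junction and adhesion genes 7 did (17.9%), of 44 genes of absorptive colonocytes 4 (9.09%), of 40 Wnt pathway genes 3 (7.50%), of 28 goblet cell genes 2 (7.14%), of 34 genes of the TGF-beta and BMP pathway 2 (5.88%), of 20 epithelial markers 1 (5.00%), of 20 stromal and endothelial genes 1 (5.00%), of 25 genes of enteroendocrine and tuft cells 1 (4%), and of 26 immune genes 0. Among list genes of 20 to 200 kb, to be set beside the 7.77%, the counts were 8 of 26 transcription factors (30.8%), 4 of 22 junction and adhesion genes (18.2%), 3 of 22 absorptive genes (13.6%), 1 of 9 goblet cell genes (11.1%), 2 of 23 genes of the TGF-beta and BMP pathway (8.70%), 1 of 12 stromal and endothelial genes (8.33%), 2 of 27 Wnt pathway genes (7.41%), 1 of 4 epithelial markers (25%), 0 of 10 enteroendocrine and tuft cell genes and 0 of 8 immune genes. The lists were not tested. In all, 35 double-marked peaks lay in 30 listed genes, 20 of them at an annotated start, 10 in an intron, 4 in an exon and 1 outside GENCODE genes.

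Among the transcription factors, Foxp1, a forkhead factor, held the peak with the highest mean H3K18cr ratio (chr6:99025351-99029250), at an internal start 493 kb from the listed one. It had 286 and 697 scaled H3K18cr reads against 96.0 and 110 in the inputs, and 230, 350 and 492 scaled H3K4me3 reads against 40.0. Runx1, known for blood cell development, held 3, the one with the highest mean ratio at an annotated start 127 kb inside the gene (chr16:92695051-92698950). It had H3K18cr ratios of 1.71 and 2.31 and H3K4me3 ratios of 1.99, 2.54 and 3.25. Another Runx1 peak (chr16:92693251-92695050) adjoined it with no gap and was counted separately. The listed start of Runx1 had neither mark, and Runx1 RNA was at 16.9 to 24.2 CPM. In Nr1h4, the bile acid receptor FXR, H3K18cr had ratios of 1.37 and 2.02 (chr10:89502751-89507250), while H3K4me3 was uneven, at -0.10, 1.35 and 1.28, so that 1 library was below input.

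Hnf4a, a nuclear receptor that maintains enterocyte identity, held a peak 44.2 kb inside the gene (chr2:163551001-163552650) and 918 bp from an annotated start. H3K18cr there was 74.7 and 151 scaled reads against 41.0 and 50.4, and H3K4me3 43.7, 26.7 and 48.2 against 16.0. Hnf4a RNA was at 815 to 874 CPM, and both marks were also at the listed start. Gata4 and Gata6, named after their values were seen, each held a peak at an annotated start. Gata6 had 79.5 to 97.9 CPM and Gata4 0.10 to 1.49 CPM, at H3K18cr ratios of 0.82 and 1.67 and of 0.70 and 1.23.

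In the signalling lists, Lrp5, a Wnt coreceptor, held an intronic peak (chr19:3667651-3670950) with H3K18cr ratios of 1.25 and 1.93 and H3K4me3 ratios of 0.63, 1.73 and 2.16. Bcl9l, a coactivator of beta-catenin, held one in an exon (chr9:44509501-44511150, H3K18cr 0.68 and 1.66), and Tcf7l1, a repressor of Wnt targets, one in an intron (chr6:72655351-72656850, 0.34 and 1.15) that did not pass the limma test (adjusted p = 0.13). Smad3, a transducer of TGF-beta, held a peak 354 bp from an annotated start and 89.3 kb from the listed one (chr9:63666901-63668700, H3K18cr 1.38 and 1.89). Smad7, an inhibitor of the pathway, held one that touched the edge of an H3K4me3 peak of 8700 bp over its listed start by 150 bp (chr18:75374551-75375600, H3K18cr 1.08 and 1.43).

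Among genes of differentiated cells, Eps8, a regulator of actin bundles in microvilli, held a peak at an annotated start 5.28 kb from a listed start with neither mark (chr6:137647801-137649600). It had 204 and 321 scaled H3K18cr reads against 49.0 and 73.3, and 230, 348 and 461 scaled H3K4me3 reads against 49.0. Espn, the actin bundler espin, held one in an exon (chr4:152138101-152139600, H3K18cr 0.92 and 1.56), and Mgat4c, a glycosyltransferase gene, one at an annotated start (chr10:102374251-102377550, 1.22 and 1.68) that was 693 kb from a listed start with neither mark. Gcnt3, which builds mucin core glycans, held a short peak in an exon (chr9:70032001-70032600) with 36.6 and 42.2 scaled H3K18cr reads against 11 and 12.2. Creb3l1, a secretory pathway factor, held an intronic one (chr2:92007751-92009100, H3K18cr 1.27 and 1.82). RNA of Gcnt3 was at 610 to 739 CPM and that of Creb3l1 at 549 to 650 CPM.

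Of the adhesion genes, Itga6, the integrin subunit of hemidesmosomes, held its peak at an annotated start 41.1 kb inside the gene (chr2:71786701-71788950), with 219 and 373 scaled H3K18cr reads against 63.0 and 82.4 and 184, 297 and 467 scaled H3K4me3 reads against 42.0. The listed start had neither mark, and RNA was at 298 to 330 CPM. Pard3, a polarity protein, held an intronic peak (chr8:127438951-127441500, H3K18cr 1.21 and 2.04), and Pkp3, a desmosomal plakophilin, one at an annotated start (chr7:141089401-141092250, 0.89 and 1.64). In the remaining lists, Sh2d6, a tuft cell gene, held a peak 6.98 kb from its start (chr6:72511051-72514650) with H3K18cr ratios of 1.49 and 2.45 and RNA of 7.19 to 13 CPM. Vwf, the endothelial clotting factor, held one at an internal annotated start (chr6:125602801-125603850) with H3K18cr ratios of 0.49 and 1.21 (adjusted p = 0.064) and RNA of 6.91 to 10.5 CPM. Among the list genes described with coordinates here, H3K4me3 did not pass the limma test against input at the peaks of Bcl9l, Smad3, Pkp3, Gcnt3, Pard3, Nr1h4 and Mgat4c (adjusted p of 0.065, 0.070, 0.079, 0.094, 0.095, 0.13 and 0.15).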

How the data were processed

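Colon epithelium of C57BL/6 mice was assayed by H3K18cr ChIP-seq (2 libraries, 2 inputs), H3K4me3 ChIP-seq (3 libraries, 1 input) and RNA-seq (3 libraries), grouped by the titles of the samples. The authors trimmed reads with Trim Galore, mapped ChIP reads to GRCm38 with Bowtie2, discarded duplicate reads, and used the MACS peak finder within SEQMONK. The deposited ChIP tables hold a signal per peak, which is a read count multiplied by 1 factor per library (1 to 1.62 for H3K18cr, 1 to 2.67 for H3K4me3) that scales it to the largest library. Where the libraries differ in enrichment, such scaling leaves the difference in the values. The deposited RNA-seq table holds raw counts per gene; the methods name HiSat2 and SEQMONK, the submitters' processing notes name TopHat2 2.0.12 and Bowtie2 2.2.5, and use of strand in counting is not given in the sources used here. Gene names and starts are those of the table. The number of peaks reaching beyond the GRCm38 chromosome lengths was 0.

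Places were read from GENCODE M21 and sequence from the GRCm38 reference. Ratios were log2 of scaled reads with 1 added. Each mark was fitted over all its peaks with limma 3.58.1 (trend, R 4.3.3) with Benjamini-Hochberg adjustment, and called at 0.05. With 1 input for H3K4me3, that library was assumed to vary like the ChIP libraries. Sets were compared by their medians in each library. Exact permutation tests over libraries (scipy 1.17.1) used summed scaled reads for H3K18cr and the differences of medians for H3K4me3. Peak widths set how many reads a value holds, and counting error is larger for narrow peaks. The members and lists were chosen with earlier results of these data known. The peaks named were, by rule, the 5 with most H3K4me3 per kb, the 5 highest and 3 lowest for H3K18cr with at least 50 scaled reads, the 2 nearest each threshold, up to 3 genes per list, and the 5 genes with most peaks; others are said to be chosen after their values were seen. Of the 5 highest for H3K18cr, 1 is not reported here. HCT116 tables were not used here.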

Additional observations from a re-analysis of the deposited data

How the results depend on the processing

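The number of peaks was 1630 to 2691 with a distance of 2 or 10 kb, a summed overlap with H3K4me3 peaks of at least 50% of the H3K18cr peak or no width limit, and 858 with the starts of all annotated transcripts. H3K18cr peaks above input numbered 219 (10.1%, against 7.41% of all peaks) when TMM, which sets the typical peak to no enrichment, replaced the authors' scaling, and 0 to 2147 when each library was left out in turn (0.0297% to 98.8% of all peaks). H3K4me3 peaks above input numbered 382 (17.9%, against 22.6% of all peaks) with TMM, where 103 (1194 of all peaks) were called below input, and 13 to 2086 without 1 ChIP library (0.348% to 95.3% of all peaks). The edgeR and DESeq2 tests were not run. The values are deposited as scaled reads and were tested as such. Leaving out libraries gave 1.09 to 1.75 for the median H3K18cr ratio, 0.19 to 0.27 for its difference to distal peaks without H3K4me3, -0.12 to -0.09 for that to promoters and -1.05 to -0.89 for the H3K4me3 difference. The difference to promoters was -0.080 for peaks of 1 to 2 kb and -0.14 with peaks also 5 kb from all annotated starts; the H3K4me3 difference was -0.68 for peaks of 1 to 2 kb. The share at annotated starts was 45.1% within 0.5 kb, 51.4% within 2 kb and 30.8% for protein-coding transcripts, and the share in genes was 74.5% with GENCODE genes. Expression of genes holding a peak, as log2 of its median to that of all genes, was -0.34 per kb of gene (-0.36 to -0.33 without 1 library), -0.90 for genes with at least 10 counts, -0.37 for genes with an exon length, 1.10 without length and 0.57 per kb of exon and 0.082 per kb of exon with at least 10 counts; the exon length alternatives were chosen after seeing the data. The CpG ratio was 0.410 over whole peaks.

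The replicate block, which pairs ChIP and input of the same number, called 2161 peaks for H3K18cr (99.9% of all peaks were called) and gave a median ratio of 1.44 and differences of 0.23 and -0.11. The numbers are not known to mark a shared preparation, and deviations of same-numbered libraries correlated at 0.0383. No paired fit was made for H3K4me3, which has 1 input. The cause of these changes was not tested.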
